A study of Homo sapiens with 21 samples.

Results

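The genes described here encode subunits of voltage-gated calcium channels. They were chosen by name, as 10 genes (CACNA1C, CACNA1D, CACNA1E, CACNA1G, CACNA1H, CACNB2, CACNB3, CACNB4, CACNA2D1 and CACNA2D2), and every transcript of theirs in the deposited tables was taken. Of the 10 genes, 9 were listed in at least 1 table, through 37 of the 21537 transcript identifiers listed in any table, which belong to 11851 named genes. CACNA1E, which encodes the R-type pore, was listed in none.

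RNA was measured by poly-A selected bulk sequencing of PGP1, an established human induced pluripotent stem cell (iPSC) line, at 5 stages of directed differentiation to heart muscle: iPSC, M (mesoderm), CMes (cardiac mesoderm), CP (cardiac progenitor) and CM (cardiomyocyte). Each stage had 3 wild-type libraries with no edited gene, 15 in all. The CM stage was also sequenced in 3 libraries of each of 2 lines, UBE2B-/-1 and UBE2B-/-2, which were derived from PGP1 in separate CRISPR-Cas9 experiments and lack UBE2B, the enzyme that passes ubiquitin to histone H2B in the complex that marks transcribed genes. The iPSC libraries were undifferentiated, and the later stages were taken along 1 differentiation with CHIR99021 and then IWP4, so that early stages had only its first steps. Wild-type and UBE2B-/- CMs had the same differentiation treatment, and beating CM wells were also selected in lactate without glucose. The paper sequenced beating UBE2B-/- CMs, and only a minority of the wells of these lines beat. It reports NKX2.5 and TNNT2 protein in only part of the beating UBE2B-/- cells, a larger part in UBE2B-/-1 than in UBE2B-/-2. The replicates were plates started at different times, and UBE2B-/- cells were plated at a higher density. Each knockout genotype is represented by 1 line. These were bulk samples, in which fewer cells of a type cannot be told apart from less RNA per cell.

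The deposited tables hold, for each comparison of neighbouring stages and for each UBE2B-/- line against wild type, the transcripts that passed the authors' q limit of 0.05, with pooled values. The mean is the authors' mean over all libraries of a table, 6 for a pair of stages and 9 for the CMs, of the natural log of the estimated count plus 0.5, and is given here as the estimated count it corresponds to. No value per library was used, so no statement is made about single libraries or about overlap between groups. The depth of the libraries is unknown from these pooled values. A transcript that is not in a table did not pass that limit or was not tested, and its level cannot be read. Tables were scaled separately.

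Voltage-gated calcium channels open when the cell membrane depolarizes and let calcium enter the cell. An alpha-1 subunit forms the pore and senses the voltage, a beta subunit inside the cell brings the pore to the membrane and tunes its gating, and an extracellular alpha-2-delta subunit supports its trafficking. In heart muscle the L-type current that runs mainly through the CACNA1C pore triggers calcium release from the sarcoplasmic reticulum through RYR2 and so couples excitation to contraction, while T-type pores (CACNA1G and CACNA1H) open at lower voltages and contribute to pacemaking and to the embryonic heart.

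The listed transcripts of CACNA1C split by 2 pairs of coding exons, and these sequences are shown because the most abundant transcript and the next one differ in both. Both pairs are mutually exclusive exons of the channel: the earlier pair encodes much of the sixth membrane segment of the first repeat and the later pair a stretch around the third segment of the last repeat. Sequences are from GRCh38 on the plus strand, written 5′ to 3′ with the bases that differ between the partners in capitals. In the earlier pair CACNA1C-209 carries the upstream exon at chr12:2504436-2504539 and CACNA1C-220 the downstream exon at chr12:2504842-2504945.
CACNA1C-209: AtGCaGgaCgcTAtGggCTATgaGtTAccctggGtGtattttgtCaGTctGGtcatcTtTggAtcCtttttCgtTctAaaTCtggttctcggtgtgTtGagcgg
CACNA1C-220: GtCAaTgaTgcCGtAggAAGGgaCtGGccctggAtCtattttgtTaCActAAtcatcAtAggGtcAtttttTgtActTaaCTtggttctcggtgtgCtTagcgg
These exons are 104 bases long and differ at 33 of them, an identity of 68.3%. In the later pair CACNA1C-209 carries the upstream exon at chr12:2633629-2633712 and CACNA1C-220 the downstream exon at chr12:2634297-2634380.
CACNA1C-209: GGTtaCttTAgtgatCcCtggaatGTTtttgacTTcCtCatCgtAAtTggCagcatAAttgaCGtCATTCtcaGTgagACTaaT
CACNA1C-220: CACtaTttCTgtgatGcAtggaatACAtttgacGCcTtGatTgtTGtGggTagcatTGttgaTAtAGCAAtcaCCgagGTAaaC
These exons are 84 bases long and differ at 35 of them, an identity of 58.3%.

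The subunits entered the tables at different stages. In the comparison of iPSC and M, 1 of the 10 genes was listed (CACNA2D2), through 1 transcript. Comparing M and CMes listed 3 genes (CACNA1H, CACNA2D2 and CACNB4) through 4 transcripts. For CMes and CP, 3 genes (CACNA1G, CACNA2D1 and CACNA2D2) were listed through 4 transcripts. The comparison of CP and CM listed 6 genes (CACNA1C, CACNA1D, CACNA1G, CACNB2, CACNB3 and CACNA2D1) through 28 identifiers with 19 distinct values. UBE2B-/-1 against wild type listed 4 genes (CACNA1C, CACNB2, CACNB3 and CACNA2D1) through 13 identifiers with 9 distinct values. For UBE2B-/-2, 5 genes, the same 4 and CACNA1H, were listed through 9 identifiers with 7 distinct values. These tables differ in size: in the same order they list 3315, 6541, 7519, 12982, 3088 and 3134 of the 21537 identifiers. A listing follows from the authors' test. Larger tables can list more genes, and a gene with many transcripts is more readily listed, so these counts are a description.

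**Figure D1:**
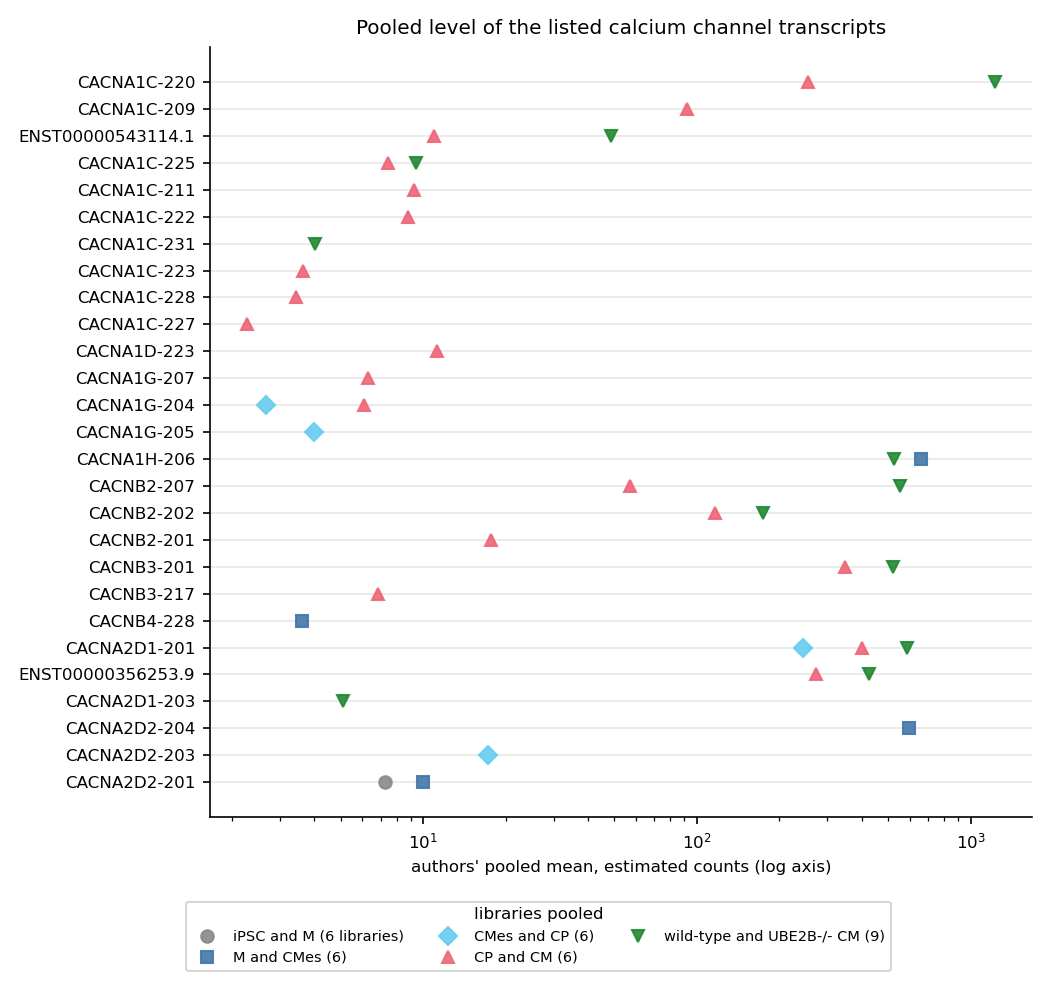
Authors' pooled mean in estimated counts (horizontal log axis) for each listed transcript of the channel subunits (rows), 1 symbol for each set of libraries in which the transcript was listed. CACNA1C-220 reaches 1224 over the 9 CM libraries, and the CACNA1G transcripts stay at or below 6.27.

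CACNA1C (chromosome 12, 1970772 to 2697950, plus strand of GRCh38) encodes the main L-type pore of heart muscle. CACNA1C-220 had a mean of 255 estimated counts over the CP and CM libraries and 1224 over the 9 CM libraries. Its SD over the CP and CM libraries together was 3.64 on the log2 scale, against 0.35 within a stage. The SD within a stage or genotype is given here from the larger of the transcript's own variance and the smoothed variance that the authors' tool gives to transcripts of that level, plus the technical variance. CACNA1C-220 was thus the transcript with the largest ratio of these variances among those listed for the channel subunits, 106, where the median transcript of that table had 3.60. CACNA1C-209 had a mean of 92.2 estimated counts over CP and CM, 2.77 times less, with an SD of 2.54 over all libraries and 1.44 within a stage. Its variance within a stage was 93.0% technical, which is the part that resampling of the reads gives and so holds both counting error and uncertain assignment of reads to transcripts, against 48.4% for CACNA1C-220. The other 7 listed CACNA1C values of that comparison lay between 2.28 and 11.0 estimated counts.

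Split by the exon pairs shown above, CACNA1C-220 held 69.4% of the listed counts over CP and CM among transcripts with an exon of the earlier pair, and 69.8% for the later pair. The upstream exon of the earlier pair was carried by 4 listed transcripts (CACNA1C-209, CACNA1C-211, CACNA1C-222 and CACNA1C-227), which summed to 112 estimated counts. Among the transcripts with a known structure, those listed for the 9 CM libraries carried no upstream exon, and the level of the others there is unknown; ENST00000543114.1, listed at 48.6 estimated counts, has no structure in GENCODE release 44 and was left out of this split. These shares come from geometric means of listed transcripts only, were given no error, and rest on estimated counts with the technical share just given.

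The 20 listed identifiers of CACNA1C formed 10 pairs with identical means and variances, so each pair was counted once. In 9 pairs exactly 1 identifier is in GENCODE release 44, and in the other pair neither is. No other channel gene described here had such a pair, whereas 3.88% of all transcripts listed for CP and CM shared their values with another identifier of their gene. If a pair's counts are summed, the level of CACNA1C-220 becomes 510 estimated counts over CP and CM and 2447 over the 9 CM libraries. The cause of the identical values was not tested.

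CACNA1D (chromosome 3, 53328963 to 53813733, plus strand), a second L-type pore known from sinoatrial and atrial cells, was listed once, through CACNA1D-223 in the comparison of CP and CM. Its mean was 11.3 estimated counts, with an SD of 3.76 on the log2 scale over the 6 libraries and 1.79 within a stage.

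The T-type pores were never listed in the same comparison, and since tables were scaled separately their levels were not compared. CACNA1H (chromosome 16, 1153106 to 1221771, plus strand) was listed through CACNA1H-206, with 661 estimated counts over M and CMes and 523 over the 9 CM libraries. Its SD over M and CMes was 0.39 on the log2 scale, against 0.22 within a stage, the lowest within-stage spread among the transcripts of the 10 genes. Over the 9 CM libraries these SDs were 1.11 and 0.72, and 78.1% of the variance within a genotype was technical. CACNA1G (chromosome 17, 50560715 to 50627474, plus strand) was listed at means of 2.67 estimated counts for CACNA1G-204 and 3.998 for CACNA1G-205 over CMes and CP, and of 6.09 for CACNA1G-204 and 6.27 for CACNA1G-207 over CP and CM. Within-stage SDs of these values ran from 1.47 to 2.22 with the smoothed variance. With the transcript's own variance CACNA1G-204 had 0.998 over CMes and CP and 0.89 over CP and CM. CACNA1G-204 has 3 coding exons that CACNA1G-205 lacks and 3 that CACNA1G-207 lacks, 2 of them shared.

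The beta subunits were listed from the CP stage on, apart from a trace of CACNB4 earlier. CACNB3 (chromosome 12, 48813794 to 48828941, plus strand) had 346 estimated counts through CACNB3-201 over CP and CM and 522 over the 9 CM libraries. The SD of CACNB3-201 over CP and CM was 0.44 on the log2 scale, close to the 0.33 within a stage, and it was the only listed transcript of the 10 genes in that comparison whose total SD lay below the table's median of 1.06. CACNB3-217, annotated as a target of nonsense-mediated decay, had 6.84. CACNB4 (chromosome 2, 151832771 to 152099167, minus strand), best known from brain, was listed once, with 3.62 estimated counts for CACNB4-228 over M and CMes and a within-stage SD of 2.47.

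CACNB2 (chromosome 10, 18140424 to 18543557, plus strand) encodes the main beta subunit of heart muscle, and its 3 listed transcripts begin their coding sequence at different exons. The coding starts are shown because the order of the first pair of transcripts differed between the sets of libraries. They are given 5′ to 3′ from the plus strand of GRCh38, with no base marked: CACNB2-202 from chr10:18140737-18140856, CACNB2-207 from chr10:18340927-18340977 and CACNB2-201 from chr10:18141180-18141215.
CACNB2-202: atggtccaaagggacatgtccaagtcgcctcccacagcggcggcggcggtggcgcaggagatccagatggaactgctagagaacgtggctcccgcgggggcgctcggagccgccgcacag
CACNB2-207: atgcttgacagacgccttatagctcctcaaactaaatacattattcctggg
CACNB2-201: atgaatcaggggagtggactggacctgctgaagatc
Over CP and CM, CACNB2-202 had 116 estimated counts, CACNB2-207 had 56.8 and CACNB2-201 had 17.7, so that CACNB2-202 held 60.9% of the listed counts of the gene. Over the 9 CM libraries CACNB2-207 had 553 and CACNB2-202 had 175, and CACNB2-207 held 76.0%. The spread over CP and CM was 4.86 on the log2 scale for CACNB2-207 (1.62 within a stage) and 1.83 for CACNB2-202 (0.53 within a stage). Of the variance within a stage, 76.4% was technical for CACNB2-207 and 43.5% for CACNB2-202. Since the first set of libraries pools CP with CM and the second holds CM only, and the tables were scaled separately, the change of order was not tested.

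Of the alpha-2-delta subunits, CACNA2D2 was listed only up to the comparison of CMes and CP and CACNA2D1 only from that comparison on. CACNA2D2 (chromosome 3, 50362613 to 50504244, minus strand) had 596 estimated counts through CACNA2D2-204 over M and CMes, 98.3% of the listed counts of the gene there. CACNA2D2-201 had 7.25 over iPSC and M and 10.01 over M and CMes, and CACNA2D2-203 had 17.2 over CMes and CP. The coding sequence of CACNA2D2-201 is 6 bases longer than that of CACNA2D2-204. For CACNA2D2-204, 87.5% of the within-stage variance was technical.

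CACNA2D1 (chromosome 7, 81946444 to 82443956, minus strand), the alpha-2-delta subunit of the cardiac L-type channel, was the gene with listings in the most tables, 4. CACNA2D1-201 had 245 estimated counts over CMes and CP, 401 over CP and CM and 585 over the 9 CM libraries, with within-group SDs of 0.24, 0.45 and 0.40 on the log2 scale. ENST00000356253.9, an identifier that is not in GENCODE release 44, had 272 over CP and CM and 426 over the 9 CM libraries. CACNA2D1-203 had 5.10 over the 9 CM libraries. CACNA2D1-201 and CACNA2D1-203 are set apart by short coding exons, shown because the first transcript had a high and the second a low level. ENST00000356253.9 has no structure in GENCODE release 44, so which of these exons it carries, and the level of either exon, are unknown. Sequences are given 5′ to 3′ on the minus strand of GRCh38. CACNA2D1-201 has an exon at chr7:81983314-81983334 that CACNA2D1-203 lacks, and CACNA2D1-203 has one at chr7:82001659-82001715 that CACNA2D1-201 lacks.
CACNA2D1-201: caaaaaagggcaaaatgaagg
CACNA2D1-203: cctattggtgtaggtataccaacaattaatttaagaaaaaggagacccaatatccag

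Levels of different genes were compared per kilobase of transcript, taking the most abundant listed transcript of each gene. Over CP and CM the order was CACNB3 (118 estimated counts per kb), CACNA2D1 (53.2), CACNB2 (19.0), CACNA1C (18.6), CACNA1D (1.64) and CACNA1G (0.88). These are means pooled over both stages, between which the genes differed unequally (SDs over all 6 libraries of 3.64 on the log2 scale for CACNA1C-220 and 0.44 for CACNB3-201), so the order need not hold within CP or within CM, and the SDs within stages do not cover this. The gap between CACNB2 and CACNA1C was 0.03 on the log2 scale and that between CACNA1D and CACNA1G 0.90, both smaller than the joint SD within stages, while the other 3 gaps exceeded it. With the paired identifiers summed, CACNA1C stood at 37.1 per kb, above CACNB2. Pooled over the 3 genotypes of the 9 CM libraries, CACNB3 stood at 178 per kb, followed by CACNB2 (94.2), CACNA1C (89.0), CACNA2D1 (77.6) and CACNA1H (66.9). The gap below CACNB3, 0.92 on the log2 scale, exceeded the joint SD of 0.80, but per kb of coding sequence it was 0.24, within that SD, and the other neighbours lay closer together than their spread, except CACNA2D1 and CACNA1H per kb of coding sequence, whose gap was 1.27 against a joint SD of 0.82. With paired identifiers summed, CACNA1C was at 178 per kb, level with CACNB3. Over M and CMes, CACNA2D2 (105) and CACNA1H (84.6) were closer than their spread, and CACNB4 was at 0.46; per kb of coding sequence, the gap between CACNA2D2 and CACNA1H was 0.89 on the log2 scale and exceeded their joint SD of 0.52. Of the other listed channel genes, CACNG7 stood at 238 per kb over iPSC and M, 216 over M and CMes, 16.2 over CP and CM and 14.0 over the 9 CM libraries. CACNG4 stood at 27.2 over iPSC and M, 35.2 over M and CMes, 233 over CMes and CP, 143 over CP and CM and 135 over the 9 CM libraries. Both encode proteins of the gamma family, which is named after a subunit of the skeletal muscle channel and whose members also serve as partners of glutamate receptors.

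**Figure D2:**
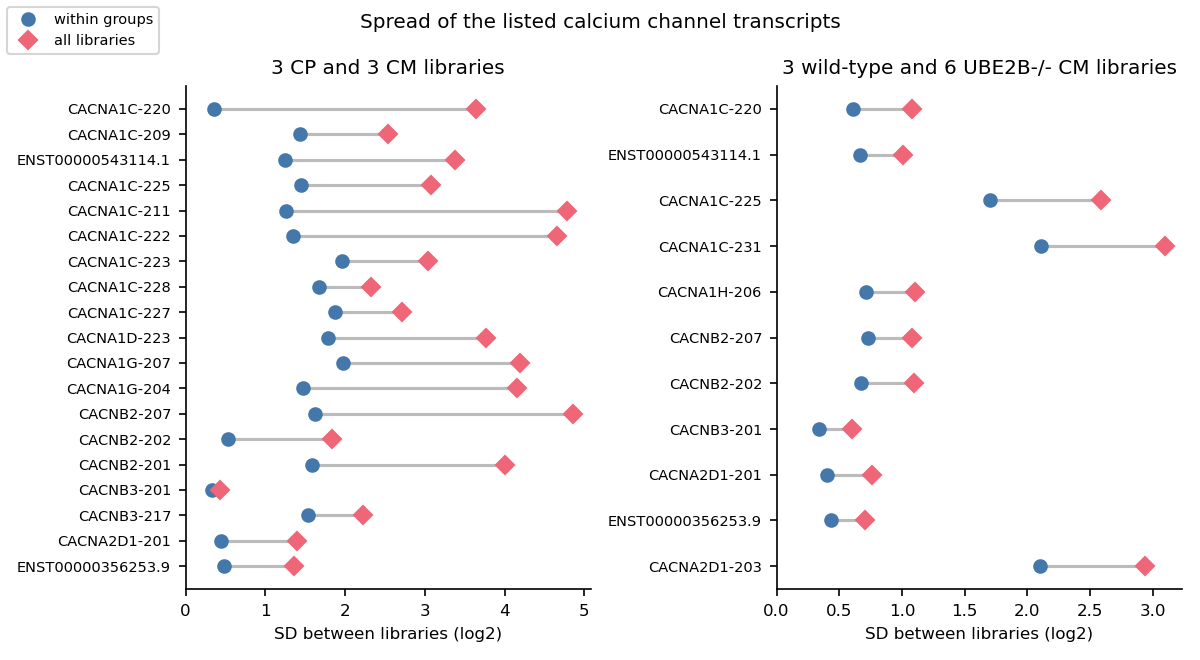
SD between libraries on the log2 scale for each listed channel transcript over the CP and CM libraries (left) and the wild-type and UBE2B-/- CM libraries (right). Circles are the SD within a stage or genotype, diamonds the SD over all libraries of the comparison, and a gray line joins them; on the left the line is longest for CACNA1C-211 and shortest for CACNB3-201.

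The spread over CP and CM set the channel transcripts apart by how much of it lay between the stages, as the plot of both SDs shows. The SD over all 6 libraries exceeded the table's median of 1.06 for 18 of the 19 distinct values, while the SD within a stage exceeded its median of 0.46 for 16 of the 19. Both were read with the level, because 12 of the 19 values lay under 20 estimated counts, against a median of 184 in the table. Listing itself required a difference between the stages, so a total SD above the within-stage SD is not a separate result. Across the 4 values with the most counts, CACNA2D1-201, CACNB3-201, ENST00000356253.9 and CACNA1C-220, the SD within a stage was between 0.33 and 0.48.

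Which genes rose or fell between stages that lie 2 steps apart could be computed from the pooled means, since neighbouring tables share a stage. The difference of their means, times 2, is the difference between the stages that they do not share, and it was centred on the median over all transcripts listed in both tables (shifts of 0.15 for CMes against iPSC, 0.38 for CP against M and -0.44 for CM against CMes on the log2 scale). A transcript could be compared only if it was listed in both tables. Where a transcript is near 0 in 1 of the stages, the difference depends on the 0.5 added to each count, so large differences are sizes on this scale and not exact folds.

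CACNA2D1-201 was higher in CM than in CMes, by 1.86 on the log2 scale (SE 0.29, 95% interval 1.29 to 2.44) or 3.64-fold, and passed the Wald test at an adjusted p threshold of 0.05 over all 3743 transcripts listed in both tables. Of these transcripts, 32.9% were called higher and 35.7% lower in CM. With the differences centred on reference genes instead, that of CACNA2D1-201 was 1.25, below the interval just given, and still passed. These reference genes, 5 here, had themselves to be listed in both comparisons, so they are not a set known to be unchanged. Higher in CM by 2.56 on the log2 scale, CACNA1G-204 did not pass the test (SE 1.46, 95% interval -0.31 to 5.42), and its means of 2.67 and 6.09 estimated counts rest on few counts. So 1 of the 2 channel transcripts that could be compared was called higher and 0 were called lower. CACNA2D2-201 differed by 0.73 between CMes and iPSC (SE 1.73, 95% interval -2.66 to 4.11) and did not pass, in a comparison of 1551 transcripts of which 19.5% were called higher and 20.4% lower. None of the 10 genes had a transcript listed in both tables for CP against M, where 43.6% of 2427 transcripts were called higher and 37.8% lower in CP. That split depended on the centring: with reference genes, 1642 instead of 1058 were called higher and 395 instead of 918 lower. The remaining channel transcripts could not be compared in this way.

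**Figure D3:**
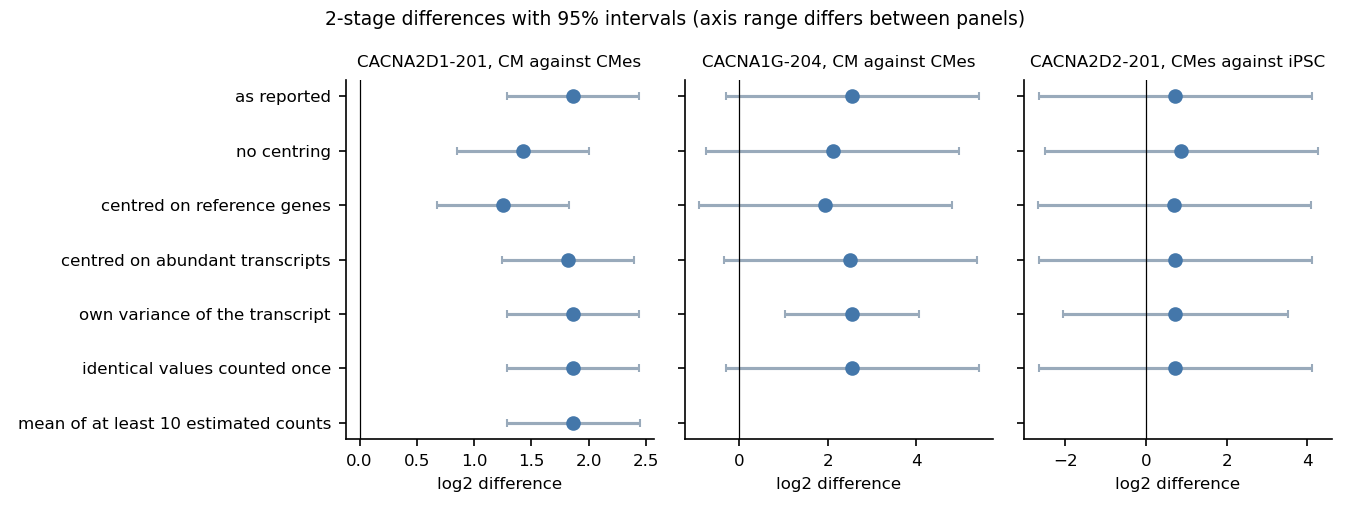
Log2 difference between stages (horizontal axis, range differing between panels) for the 3 channel transcripts listed in 2 neighbouring tables, as reported and under each alternative scaling or variance (rows); bars are 95% intervals. The interval of CACNA2D1-201 lies above 0 in every row, that of CACNA1G-204 only with the transcript's own variance, and that of CACNA2D2-201 includes 0 in every row; a missing point marks a transcript under the count minimum.

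Among the other 16 voltage-gated channel genes, CACNG4 alone could be compared between CM and CMes, with a difference of -0.97 on the log2 scale (SE 0.46), which did not pass the test but did so when the differences were not centred, or were centred on reference genes or on abundant transcripts. CACNG4 was higher in CP than in M by 5.07 (SE 0.44) and passed. Between CMes and iPSC, CACNG4 and CACNG7 were measured and neither passed the test, with differences of 0.59 and -0.43, although CACNG7 was called lower when centred on reference genes and with the transcript's own variance.

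Of 19 genes that regulate these channels and are reported here, 5 had a value for CM against CMes. Of these, 4 rose and AKAP12, an anchor of protein kinase A, did not pass the test at 0.13 on the log2 scale, though it was called lower when the differences were centred on reference genes. CAMK2D, the cardiac calcium/calmodulin kinase that facilitates the L-type current, rose by 2.24 (SE 0.15). PPP1R1A, an inhibitor of protein phosphatase 1 and so a regulator of protein kinase A signals, rose by 2.15 (SE 0.22) and STAC, an adaptor that slows channel inactivation, by 1.98 (SE 0.30). AHNAK, a large scaffold protein that binds the beta subunit, rose by 1.39 (SE 0.28). Between CP and M, 2 of 3 measured regulators rose (AHNAK by 5.69 and CALM2 by 0.54), and PPP1R1A also passed when centred on reference genes, and between CMes and iPSC 1 of 2 rose (PRKAR1A, by 0.72, a call lost on a t distribution). Over all transcripts compared, 32.9% were called higher in CM than in CMes, 43.6% in CP than in M and 19.5% in CMes than in iPSC, and with 3 and 2 genes the counts of the latter intervals are not read as different from these shares. The same shares, and 35.7%, 37.8% and 20.4% called lower, are the background of the lists that follow.

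Of 20 genes that handle calcium downstream of the channel, 11 could be compared between CM and CMes, and 7 rose, 2 fell and 2 did not pass the test, with a median difference of 2.15 on the log2 scale against 0.04 over all 2904 genes tested. PLN, the inhibitor of the sarcoplasmic reticulum calcium pump, was called higher, with a difference of 15.3 on the log2 scale (SE 0.73) whose size was not read as a fold. Its pooled means were 20.5 estimated counts over CMes and CP and 3583 over CP and CM. SLC8A1, the sodium/calcium exchanger, rose by 8.86 (SE 0.32), JPH2, which holds the channel's membrane next to the sarcoplasmic reticulum, by 5.21 (SE 0.19), and ASPH by 3.30 (SE 0.20). ATP2B4, a plasma membrane calcium pump, fell by 2.72 (SE 0.22). BIN1, which shapes the transverse tubules, fell by 1.06 (SE 0.23). The listed transcript of ATP2A2, the pump itself, differed by 0.01 (SE 0.13) and did not pass, and was called lower in CM when the differences were left uncentred or were centred on reference genes. This was ENST00000539276.7, not the transcript of ATP2A2 that was most abundant over CP and CM, ENST00000308664.10, which was not listed for CMes and CP. The compared transcripts of ATP2B4 (ENST00000357681.9), ASPH (ENST00000517856.5) and TRDN (ENST00000546248.5) were likewise not the most abundant of their genes over CP and CM. RYR2 could not be compared. Between CP and M, 4 of 6 measured genes rose (ATP2B1, ATP2B4, BIN1 and JPH2) and 2 fell (TMEM38A and TRDN), but centred on reference genes TMEM38A was called higher and TRDN passed in neither direction. TRDN (ENST00000334268.9) and ATP2B1 (ENST00000393164.6) were compared there through other transcripts than between CM and CMes. Between CMes and iPSC the 1 measured gene, TMEM38A, had a difference of -0.51 that was called lower, but not without centring, on a t distribution or at an adjusted p threshold of 0.01.

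**Figure D4:**
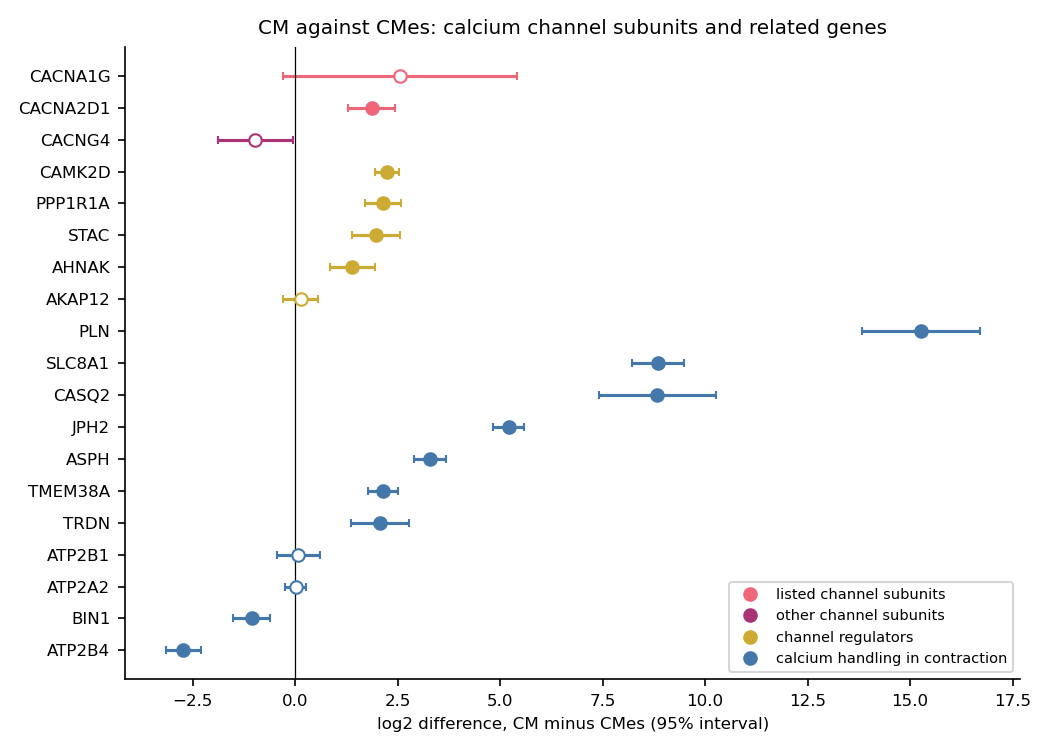
Log2 difference of CM minus CMes for the channel subunits and for those other channel genes, channel regulators and calcium-handling genes that were listed in both tables. Bars are 95% intervals, and filled points passed the adjusted p threshold of 0.05. PLN lies farthest to the right at 15.3, CACNA2D1 at 1.86 and ATP2B4 farthest to the left at -2.72.

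Markers of cell types moved over the same interval. Of 12 cardiomyocyte markers, 9 could be compared between CM and CMes and all 9 rose, with a median difference of 9.11 on the log2 scale (TNNI1, a troponin, by 9.11, and MYL7, the atrial myosin light chain, by 7.32), and between CP and M all 4 measured rose. All 5 measured pluripotency markers fell between CM and CMes, with a median of -7.83 (POU5F1 fell by 13.0), and all 4 between CP and M. Between CMes and iPSC, 0 of 2 cardiomyocyte markers passed the test and the 1 measured pluripotency marker, DPPA4, fell by 1.65. All of these called directions are those the stage labels imply.

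Cells of other kinds also express calcium channels, and their markers moved too. Of 8 smooth muscle markers, 4 were measured between CM and CMes and 3 rose, with a median of 5.39 on the log2 scale (ACTA2 by 8.08, LMOD1 by 6.50 and CNN1 by 4.27), although immature cardiomyocytes also express these genes. Summed over its listed transcripts, this list stood at 9581 estimated counts over CMes and CP (9 transcripts), with CALD1 the most abundant gene, and at 26160 over CP and CM (20 transcripts), with ACTA2. Such sums follow which transcripts were listed, in tables scaled separately, and are given as levels only. Of 5 measured fibroblast markers out of 8, COL3A1 (7.20) and LUM (3.94) rose and PDGFRA fell by 1.48, with a median of 0.44. COL1A1 was compared through ENST00000474644.1, with pooled means of 10.1 and 9.49 estimated counts. It was the list's most abundant gene over CMes and CP through another transcript, at 7343. The fibroblast list summed to 19876 over CMes and CP (11 transcripts) and to 27402 over CP and CM (17 transcripts). Over CP and CM, COL3A1 was the most abundant gene and DCN the only one without a listed transcript. Of 12 neuronal markers, 2 were measured. STMN2 had a difference of -2.79 that was called lower, but not on a t distribution or at an adjusted p threshold of 0.01, and it lay under the minimum of 10 estimated counts tried as an alternative. TUBB3 did not pass the test; RBFOX3 and ELAVL4 were listed in no stage comparison. The neuronal list summed to 1190 over CMes and CP (6 transcripts) and to 1103 over CP and CM (7 transcripts), with TUBB3 the most abundant gene in both. The only endothelial marker measured of 7, VWF, fell by 7.07; the list had 1 listed transcript over CMes and CP, at 228, and 5 over CP and CM, summing to 2611, with KDR the most abundant gene there, and CDH5 and PECAM1 were listed in no stage comparison. Of 5 measured endoderm markers out of 7, TTR rose by 5.88 and SOX17 and FOXA2 fell, with a median of -0.42, but FOXA2 did not pass on a t distribution. The part of these cell types in the difference of CACNA2D1-201 was not tested.

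In the other intervals, these lists were read the same way. Between CP and M, 2 of 2 smooth muscle, 3 of 3 fibroblast, 1 of 1 endothelial and 5 of 5 endoderm markers rose and 1 of 1 neuronal markers fell. Between CMes and iPSC, PDGFRA rose among fibroblast markers, FOXA2 rose among endoderm markers, both measured neuronal markers (SYT1 and NEFL) fell, the 1 measured smooth muscle marker did not pass the test and no endothelial marker was measured.

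The comparison of UBE2B-/- with wild-type CMs asks whether the channel genes depend on the enzyme. The tables of the 2 lines hold 1992 transcripts in common, all with the same mean and variances, so they come from a fit of the 9 CM libraries together. Among the deposited values, the size and direction of each line's difference stand only in columns of the authors' own comparison. Those columns were not used, so no direction is given. The pooled values likewise cannot check the genotype of a library: the 1 listed UBE2B transcript, ENST00000499038.2 in the table of UBE2B-/-1, had a mean of 79.7 estimated counts over the 9 libraries, with an SD of 0.92 on the log2 scale and of 0.64 within a genotype.

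The listed channel transcripts of the 9 CM libraries took 11 distinct values, 5 of them listed for both lines: CACNA1C-220, ENST00000543114.1 of the same gene, CACNB2-202, CACNB3-201 and CACNA2D1-201. The SD over the 9 libraries was 1.08 on the log2 scale for CACNA1C-220, 1.10 for CACNB2-202, 0.76 for CACNA2D1-201 and 0.60 for CACNB3-201. Within a genotype the SDs were 0.61, 0.67, 0.40 and 0.33 in the same order. That of CACNB3-201 rests on the smoothed variance and was 0.205 with the transcript's own variance. The medians over all transcripts listed for UBE2B-/-1 were 0.73 for the SD over all libraries and 0.40 within a genotype. For UBE2B-/-2 they were 0.78 and 0.43. CACNB3-201 lay below the medians for both lines, and CACNA2D1-201 below those for UBE2B-/-2 only. Listed for UBE2B-/-2 alone were CACNB2-207, with SDs of 1.08 and 0.73, and CACNA1H-206, and for UBE2B-/-1 alone CACNA1C-225, CACNA1C-231, CACNA2D1-203 and ENST00000356253.9. For CACNA1C-220 technical variance made up 0.57% of the variance within a genotype, the lowest share among the listed channel transcripts. Whether the lines differ from each other was not tested.

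Markers of cell types were listed in the same tables. Of the 21537 identifiers listed anywhere, these hold 3088 for UBE2B-/-1 and 3134 for UBE2B-/-2. The markers are counted as genes, and a gene with many transcripts is more readily listed. Their counts are thus a description and are not set against these numbers of identifiers. Of 12 cardiomyocyte markers, 5 were listed for UBE2B-/-1, with TTN the most abundant at 36653 estimated counts over the 9 libraries, and 8 for UBE2B-/-2, with ACTC1 the most abundant at 85298. Of 8 fibroblast markers, 4 were listed for UBE2B-/-1 and 6 for UBE2B-/-2, with COL3A1 the most abundant in both at 50516. Smooth muscle markers were listed for 3 of 8 genes in both tables, with LMOD1 the most abundant at 2765. Of 12 neuronal markers, 2 were listed for UBE2B-/-1, with TUBB3 the more abundant at 2994, and 0 for UBE2B-/-2. Of 7 endothelial markers, 0 were listed for UBE2B-/-1 and 1 for UBE2B-/-2, KDR at 505, and of 7 endoderm markers 1 (SOX17, at 50.5) and 0. Summed over the transcripts listed for UBE2B-/-1, the means over the 9 libraries came to 64825 estimated counts for the fibroblast list (11 transcripts). Over those listed for UBE2B-/-2 they came to 127426 (16 transcripts). In the same order the cardiomyocyte list summed to 97480.3 (16 transcripts) and 200190 (28 transcripts), and the smooth muscle list to 3152 and 4505 (3 transcripts each). Both sums of a list pool the same 9 libraries and differ only by which transcripts were listed, so they are not levels of either line. CDH5, PECAM1, RBFOX3 and ELAVL4 were listed for neither line, nor was any pluripotency marker. As for the channel transcripts, no direction is given, and the part of these cell types in the channel listings was not tested.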

How the data were processed

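Bulk RNA-seq was analyzed for 21 libraries in 7 groups of 3, grouped by the labels. The authors trimmed reads with FASTX-Toolkit, quantified transcripts with kallisto against hg38 and made the tables with sleuth, listing transcripts with a q-value up to 0.05. The deposited means are on a natural log scale (normalized estimated counts plus 0.5, pooled over the libraries of a table), and the deposited variances are entered as scores on the squared scale. The deposited tables also hold the p-value, q-value, effect and its standard error of the authors' own comparisons, 4 columns that were neither used nor printed. Columns of single samples left unmatched numbered 0.

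The spread within a group is the square root of the variance kept by sleuth plus the technical variance. For stages 2 steps apart, the difference, times 2, of pooled means of neighbouring tables was centred on the median of all shared transcripts and tested with a two-sided Wald (normal) test; the SE sums the variances of the outer stages over 3 libraries each, and p-values were adjusted by Benjamini-Hochberg over all shared transcripts. Being listed in both tables selects transcripts that passed the authors' limit in both. The normal distribution does not allow for the few libraries behind each variance, so calls are given at a threshold of 0.05 with the SE and no p-value is printed; a t distribution was an alternative. Scripts were tested on simulated data and used Python 3.11.15, numpy 2.4.6, pandas 2.3.3 and scipy 1.17.1.

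Every channel gene is named; the most abundant transcript listed speaks for a gene, and of each other list up to 4 genes with the largest test statistics are named, others having been chosen after their values were seen. Genes whose pattern is most like a channel gene's were to be named over the 4 stage comparisons, but 0 channel transcripts were listed in all 4, against 397 of all transcripts. The members and all 11 lists (24 reference genes serve only for centring) were chosen with earlier results of these data known. A member of the list of channel regulators is not reported here and is left out of its counts. Lengths and exons are from GENCODE release 44 on GRCh38, where 94.4% of the transcripts listed for CP and CM were found by identifier; for some, the listed version differs.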

Additional observations from a re-analysis of the deposited data

How the results depend on the processing

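No paired analysis was possible because the tables hold pooled values and none per library; leaving out each replicate in turn was not run for the same reason. CACNA2D1-201 kept its direction and its call under the 8 alternatives, with differences from 1.25 to 1.87 on the log2 scale. CACNA2D2-201 did not pass under any alternative that could be run (0.71 to 0.88), nor did CACNA1G-204 (1.94 to 2.56), except that with the transcript's own variance CACNA1G-204 passed (2.56, SE 0.77), since that variance is the smaller. On a t distribution with 4 degrees of freedom, CACNA2D1-201 passed, and 200 transcripts instead of 302 were higher and 193 instead of 316 lower in CMes than in iPSC. PRKAR1A, TMEM38A (both CMes against iPSC) and STMN2 and FOXA2 (both CM against CMes) no longer passed on the t distribution, nor TMEM38A without centring, and at an adjusted p threshold of 0.01 TMEM38A and STMN2 lost their calls. With a minimum of 10 estimated counts, STMN2 and COL1A1 (CM against CMes), FOXA2 (CMes against iPSC) and TNNI1, APOA1, APOA2, COL3A1 and LUM (CP against M) could not be compared. Centred on reference genes, 1642 instead of 1058 were higher and 395 instead of 918 lower in CP than in M; for CM against CMes this gave 941 higher and 1949 lower, and no centring 993 and 1764, against 1230 and 1335. Without centring, CMes against iPSC gave 398 and 263. Reference genes numbered 4, 5 and 5 measured in CMes against iPSC, CP against M and CM against CMes. Like any other gene they had to be listed in both neighbouring comparisons, and some stood by minor transcripts. GAPDH entered CP against M at 345 and 148 estimated counts, while its most abundant transcript over CMes and CP had 43409. Calls under this centring rest on few genes that the authors' test had selected, and are not an independent check of the scale. Counting identical values once and summing paired identifiers were alternatives chosen after seeing the data, as was the level per kb of coding sequence, which kept the order over CP and CM and changed which gaps exceeded the spread over M and CMes and over the 9 CM libraries. With the transcript's own variance, for the stages also chosen after seeing the data, the SD within a stage was smaller by over 1.5 times for 5 of the 19 distinct channel values over CP and CM and 1 of 4 over CMes and CP, and that within a genotype for 1 of 11 over the 9 CM libraries. Pooled means keep no depth, so counting error could not be separated from other technical variance.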
